A study of Apostichopus japonicus with 9 samples.

Results

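Every miRNA name in the authors' deposited table of 48 h at 26 °C against control was taken as a member, 290 of the 409 names listed in the series. The small RNA came from the intestine of Apostichopus japonicus, a sea cucumber that is farmed for food, in animals of 100 to 120 g. The heat group was held at 26 °C for 48 h and the control group is labelled normal, with 3 libraries in each. Total RNA was extracted from each individual, and no pooling of animals is stated. Neither strain, sex and age nor the temperature and sampling time of the control are given in the sources used here, so warm water and time held cannot be told apart. Whole intestine holds muscle, nerve, epithelium and wandering coelomic cells, so fewer cells of a type and less RNA per cell cannot be told apart in any level below.

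MicroRNAs (miRNAs) are short RNAs that guide Argonaute proteins to messenger RNAs, mainly through the seed near their 5′ end, and lower the output of those messages. Many are ancient and mark tissues, such as miR-1 in muscle and miR-124 in neurons. Sea cucumbers of this species pass the warm season in a dormancy called aestivation, when feeding stops and the gut shrinks. Apart from 4 predicted miRNAs, the names in the table are those of miRNAs known from many species, so a name does not show that the sea cucumber has that gene. The roles given below come from vertebrates, Drosophila or Caenorhabditis elegans, as stated. No sequence of a listed name was used here, and names are grouped by number and not by seed.

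The table holds no value for a single animal. It gives, per group, a read count summed over the 3 libraries and a mean level, read here as RPM (reads scaled to a library total of 1 M, mega) from the values, since its header names no unit. Where a name has reads in 1 library, its count divided by its summed level equals that library's total. This gave totals of 57.2, 61.9 and 113 M reads at 48 h and of 91.6, 109 and 144.9 M reads in the control. Which animal each total belongs to is not known, so libraries are called deepest, middle and shallowest. The deepest 48 h total lies far from the other two, which are nearly alike. The count and the mean of a name together therefore bound the level in the deepest 48 h library, and with it the mean of the other two. The range for the deepest library is narrow for some names and wide for others, such as miR-124-3p at 374 to 802 RPM. Ranges below are all that any split of the reads over 3 libraries allows. They are not confidence intervals.

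The deepest 48 h library stood apart from the other 48 h libraries in the most abundant name. It had 142859 to 142870 RPM of miR-10c-5p, against a mean of 62.0 to 67.7 RPM in the other two. miR-4113-5p and miR-71b-5p were likewise listed in the deepest 48 h library alone, at 16786 and 9213 RPM. For this reason the higher names are given below both for that library and for the other two.

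The authors tested 415 names and listed 290, or 69.9%, each beyond 2-fold on pooled counts. Levels were higher at 48 h for 179 names, 43.1% of those tested and 61.7% of those listed. They were lower for 111, or 26.7% and 38.3%. Reads in both groups were present for 73 names. Among these, 58 were higher and 15 lower at 48 h, with a median log2 ratio of 1.32 and -1.39 in the authors' deposited table. A further 121 names had no reads in the control and 96 had none at 48 h. Where a single library held all reads of a name, its level was never under 20.01 RPM, so no reads is read as less than about 20 RPM in every library. Counting error was small, as the group with more of a name had 1198 reads or more (exact Poisson 95% interval of that lowest count 1131 to 1268, covering counting error only). The spread between animals was not tested, because the table holds 1 value per group.

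**Figure D1:**
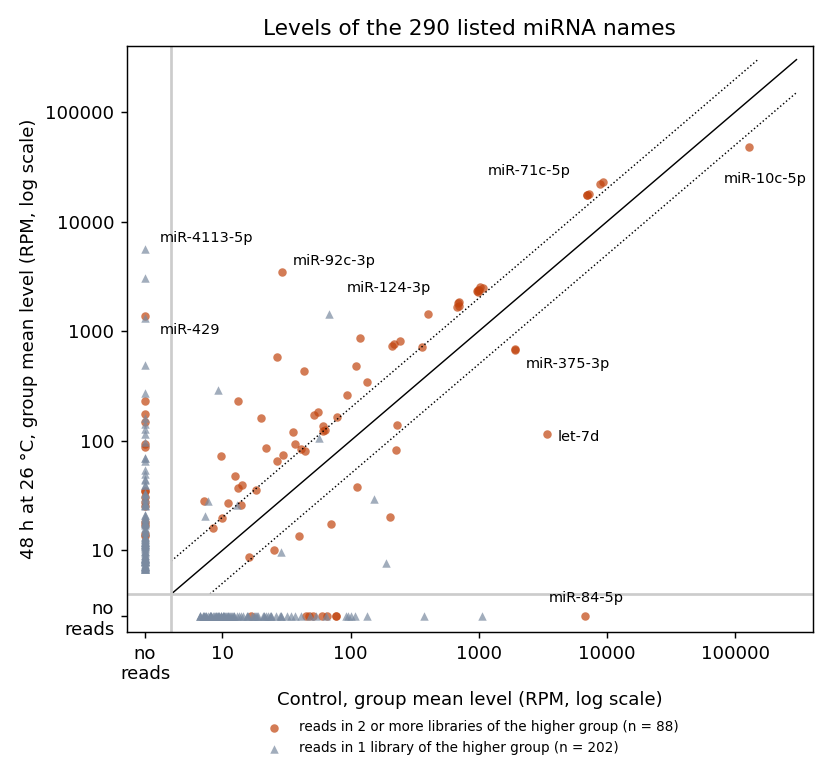
Group mean level of each of the 290 listed names at 48 h at 26 °C (vertical axis) against control (horizontal axis), in RPM on log scales, with the grey strips for groups without reads. The solid line marks equal levels and the dotted lines 2-fold; orange circles are the 88 names read in at least 2 libraries of the group with more, grey triangles the 202 read in 1, and most of the triangles lie in the strips.

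Whether the libraries of the groups overlapped could be settled from the columns for most names. For 230 of the 290, or 79.3%, the libraries of the groups overlapped or tied at no reads under every split. Of these, 202 had reads in 1 library of the group with the higher mean, so that they overlapped or tied by construction. The other 88 names, 30.3% of the list, had them in at least 2 libraries of that group, and 28 of these overlapped under every split, or 31.8%. The 28 comprised 21 higher names, among them miR-124-3p, miR-2004 and miR-4005c-5p, and 7 lower names, among them miR-10c-5p, let-7d and miR-29b. For the other 60 the columns allow overlap and separation alike. Separation could not be certain for any name, since some allowed split always leaves a library of the group with more without reads. With every library of the lower group that could lie just under 20 RPM set at that level, 89 names, or 30.7%, were still at least 2-fold different by their means. Of these, 60 were higher, 20.7% of the list, and 29 were lower. Only 57 of the 89 had reads in at least 2 libraries of the group with more. Of the 89, 47 overlapped or tied under every split, among them by construction all those read in 1 library.

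The listed names took up different shares of the libraries in the 2 groups. With names of nearly equal counts, taken to share reads, counted once, the higher names summed to 8.06% of reads at 48 h and 2.36% in the control. The lower names summed to 4.89% at 48 h and 14.5% in the control, most of it miR-10c-5p. Without miR-10c-5p the lower names made up 0.119% of reads at 48 h and 1.70% in the control. Names without reads in the control reached 1.53% at 48 h, and names without reads at 48 h had made up 1.04% in the control. Of the 15274 RPM behind the former, miR-4113-5p and miR-71b-5p gave 5595 and 3071 RPM, from the deepest 48 h library alone. Of the 10414 RPM behind the latter, miR-84-5p gave 6756 RPM.

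A muscle name and a stress-linked name, with names of nearly equal counts, were the most abundant of the higher names. miR-1a-3p, the muscle miRNA of animals from flies to mammals, had a mean of 17821 RPM at 48 h and 7181 RPM in the control, 2.48-fold higher. Its level was 10854 to 14418 RPM in the deepest 48 h library and 19522 to 21304 RPM on average in the other two, so each of these values lay above the control mean. The counts of miR-1c and miR-1-3p were nearly equal to its own in both groups, and whether they share reads was not tested on sequence. miR-71c-5p belongs to a family that lengthens life and resists stress in Caenorhabditis elegans and is missing from vertebrates. It averaged 22784 RPM at 48 h and 9299 RPM in the control, 2.45-fold higher. Its level in the deepest 48 h library was 10565 to 15398 RPM, 1.14 to 1.66 times the control mean, and the other two averaged 2.85 to 3.11 times the control mean. The columns do not settle whether the groups overlapped for either name. The order was alike for miR-125b-5p, of the family of lin-4, which times larval stages in Caenorhabditis elegans. It had 1292 to 1819 RPM in the deepest 48 h library and 2886 to 3150 RPM on average in the other two, against a control mean of 1017 RPM. Thus for these 3 names the deepest 48 h library lay below the mean of the other two, whereas miR-71b-5p was read in the deepest alone.

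For miR-124-3p and miR-2004 the mean of the 2 shallower 48 h libraries was well above the level in the deepest. miR-124-3p, enriched in neurons across animals, averaged 1832 RPM at 48 h and 700 RPM in the control. Its deepest 48 h library held 374 to 802 RPM, while the other two averaged 2347 to 2561 RPM, 3.35 to 3.66 times the control mean. At least 1 library at 48 h had 740 RPM or less and at least 1 control library 997 RPM or more, so the groups overlapped. miR-2004, a name from echinoderms, followed the same pattern with 1703 RPM at 48 h and 701 RPM in the control. Its deepest 48 h library, at 253 to 659 RPM, lay below the control mean. The other two averaged 2224 to 2427 RPM. miR-2012-5p, also an echinoderm name, had 875 to 1400 RPM in the deepest 48 h library against a control mean of 1012 RPM. miR-1715-5p, with 814 RPM at 48 h and 244 RPM in the control, had 115 to 309 RPM in the deepest 48 h library and overlapped under every split.

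Other higher names had a level in the deepest 48 h library closer to the mean of the other two. How that mean divides between them is not known. miR-92c-3p belongs to the miR-25/92 family, whose vertebrate members include the miR-92 of the miR-17-92 cluster, a cluster known from cell proliferation. It averaged 3433 RPM at 48 h and 29.1 RPM in the control, 118-fold higher. It had 3561 to 4124.6 RPM in the deepest 48 h library and 3087 to 3369 RPM on average in the other two, whereas the deepest control library had 20.9 to 42.7 RPM. miR-7-5p, a miRNA of neurons and secretory cells in vertebrates, averaged 763 RPM at 48 h and 218 RPM in the control. It stood at 788 to 914 RPM in the deepest 48 h library and at 688 to 751 RPM on average in the other two. miR-6093 had 1624 to 1846 RPM in the deepest 48 h library and 1216 to 1327 RPM on average in the other two. Its control reads all came from 1 library, at 1208 RPM. let-7e, of the let-7 family that times development, was 2.80-fold higher at 261 RPM against 93.1 RPM, with 197 to 246 RPM in the deepest 48 h library.

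In further names the deepest 48 h library carried most of the reads. miR-4005c-5p, a name from tunicates, averaged 2254 RPM at 48 h and 994 RPM in the control, but 89.2 to 90.1% of the 48 h level was in the deepest library. That library held 6030 to 6091 RPM, and the other two averaged 336 to 366 RPM, below the control mean. miR-7958-3p had 957 to 963 RPM there and 36.8 to 40.2 RPM on average in the other two, with its control reads in 1 library at 401 RPM. miR-6560-5p had 1099 to 1116 RPM there and 91.4 to 99.7 RPM on average in the other two. Its control mean of 43.4 RPM came from 1 library at 130 RPM. miR-2006-5p, an echinoderm name, averaged 720 RPM at 48 h and 362 RPM in the control. Its deepest library had 1033 to 1127 RPM, and the other two averaged 1.43 to 1.56 times the control mean. Its ratio of means was 1.99 with all libraries.

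**Figure D2:**
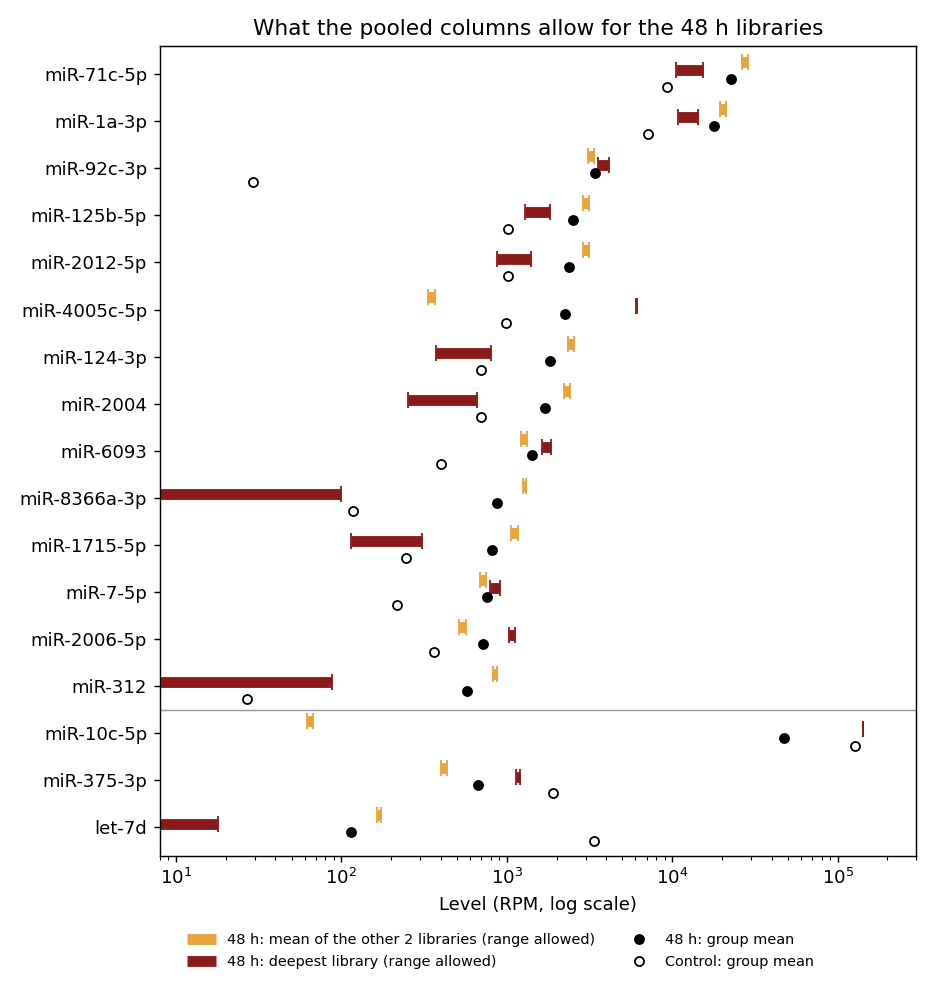
Level in RPM on a log scale of 14 higher and 3 lower names (below the grey line): the range allowed for the mean of the other 2 libraries at 48 h (yellow), the range allowed for the deepest 48 h library (dark red), the 48 h group mean (filled circle) and the control group mean (open circle). Bars that reach the left edge include 0. Among the higher names the dark red bar lies wholly below the control circle for miR-2004 and miR-8366a-3p. Among the lower names it lies above the circle for miR-10c-5p and below it for miR-375-3p and let-7d.

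Another set of names had little or nothing in the deepest 48 h library. miR-429, a member of the miR-200 family that keeps epithelial identity in vertebrates, averaged 1364 RPM at 48 h and had no reads in the control, at least 68.2-fold higher. Its deepest 48 h library held at most 178 RPM, and the other two averaged 1957 to 2046 RPM. miR-312, a Drosophila relative of miR-92, averaged 579 RPM at 48 h and 26.9 RPM in the control. It had at most 87.2 RPM in the deepest 48 h library and 824 to 868 RPM on average in the other 2. The shallowest had 693 to 1648 RPM and the middle one 0 to 1043 RPM, and overlap of the groups is not settled. miR-7, a separate name from miR-7-5p, had at most 69.7 RPM in the deepest 48 h library and 687 to 722 RPM on average in the other two, with all of its control reads in 1 library at 329 RPM. miR-8366a-3p had at most 99.5 RPM in the deepest 48 h library, below its control mean of 118 RPM. That control mean came from 1 library, at 353 RPM. At 48 h its shallowest library had 1426 RPM or more and its middle one 0 to 1190 RPM, and the groups overlapped. miR-205-5p, the other epithelial name, unlike miR-429 had 143.7 to 155.3 RPM in the deepest 48 h library. The other two averaged 63.4 to 69.2 RPM, against no reads in the control.

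Over the 67 higher names with reads in 2 or more 48 h libraries, 52 also had reads in the control. The deepest 48 h library was above the control mean under every split for 39 of the 52, or 75.0%. It was below the control mean for 8, or 15.4%, which were miR-2004, miR-2004-3p, miR-8366a-3p, miR-7, miR-4488, miR-4295, miR-79-3p and miR-222. The control reads of miR-8366a-3p, miR-7 and miR-4488 all came from 1 library, at 353, 329 and 59.8 RPM there. For miR-4295, miR-79-3p and miR-222 the control means were only 12.6, 7.22 and 11.0 RPM. For the remaining 5 of the 52 either was possible. All 52 were called higher on pooled counts that include the deepest 48 h library, so a majority above the control mean was favoured in advance. Joining names taken to share reads left 30 above and 7 below. Without that library, 117 of the 179 higher names stayed at least 2-fold above the control mean under every split. The count was 110 without the shallowest and 107 without the middle 48 h library. A name read in 1 library drops out of these counts with that library. Names without reads in the control, 121 of the 179, passed at any level left, since the 20 RPM floor was not applied. Of the 73 names with reads in both groups 11 changed direction under every split when 1 library was left out. Without the deepest 48 h library these were miR-8224-5p, miR-4005c-5p, miR-7958-3p, miR-4194-3p and miR-9-4-3p. Of them miR-8224-5p, miR-4194-3p and miR-9-4-3p turned by construction, since their 48 h reads came from that library alone. Without another library miR-9192, miR-3156-5p and miR-7560 likewise turned by construction, as it held all reads of the group with more.

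Among the lower names miR-10c-5p had the highest level in both groups. It belongs to the miR-10 family, which lies in the Hox gene clusters, and averaged 47665 RPM at 48 h and 127756 RPM in the control. Its level in the deepest 48 h library, 142859 RPM or more, exceeded the control mean, and at least 1 control library had 79593 RPM or less, so the groups overlapped. The deepest control library held 185238 RPM or more. On pooled counts the log2 ratio was -1.01 in the authors' deposited table, while the ratio of means was 2.68-fold lower. Without the deepest 48 h library the mean at 48 h would be at most 67.7 RPM. miR-10b averaged 37.6 RPM at 48 h and 112 RPM in the control, and its deepest 48 h library held 80.1 to 82.8 RPM.

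For miR-375-3p the deepest 48 h library and the mean of the other two were both below the control mean. This miRNA marks pancreatic islets and other secretory cells in vertebrates. It averaged 669 RPM at 48 h and 1913 RPM in the control, 2.86-fold lower. At 48 h the deepest library had 1134 to 1207 RPM, 0.593 to 0.631 times the control mean, and the other two averaged 400 to 437 RPM. The deepest control library had 2344 RPM or more. The counts of miR-375 were nearly equal, and it is taken to share these reads. miR-375b-3p averaged 82.5 RPM at 48 h and 224 RPM in the control, with 156 to 164 RPM in the deepest 48 h library. For all 3 names the columns do not settle whether the groups overlapped.

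The most abundant let-7 and miR-84 names were lower at 48 h. let-7d averaged 115 RPM at 48 h and 3375 RPM in the control. At 48 h the deepest library had at most 17.9 RPM, and the other two averaged 164 to 173 RPM. In the control the deepest library held 9862 to 9949 RPM and the other two averaged 88.4 to 132 RPM. Thus the high control mean came from 1 library, and the groups overlapped. miR-84-5p, a name from the let-7 family of nematodes, had no reads at 48 h and 6756 RPM in the control, with 9819 to 13246 RPM in the deepest control library and a mean of 3511 to 5225 RPM in the other two. In the opposite direction let-7a-5p averaged 122.1 RPM at 48 h and 60.7 RPM in the control, with 109 to 130 RPM in the deepest 48 h library and 118 to 129 RPM on average in the other two.

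Lower names of lesser abundance included miR-29b, whose mammalian form restrains collagen genes in mammals. It averaged 140.7 RPM at 48 h and 232 RPM in the control, 1.65-fold lower by means although its pooled log2 ratio was -1.02, and the groups overlapped. miR-100b-5p, whose family shares a cluster with let-7 in many animals, averaged 17.3 RPM at 48 h and 70.4 RPM in the control. Its deepest 48 h library had 27.0 to 29.1 RPM, and the deepest control library 81.9 RPM or more. miR-33, whose vertebrate relatives lie in genes of sterol regulators, had 10.03 RPM at 48 h from 1 library and 25.4 RPM in the control. miR-25 had no reads at 48 h and averaged 65.0 RPM in the control over 2 or more libraries, at least 3.25-fold lower. miR-2788-3p, miR-4417 and miR-2472 likewise had no reads at 48 h and control means of 77.1, 76.6 and 59.4 RPM.

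Lists of miRNAs linked to tissues, families or lineages are described by how many of their listed members were higher, beside 61.7% higher over all listed names. The muscle list had 8 higher and 2 lower members. Those with reads in 2 or more 48 h libraries were the abundant miR-1 names already given, miR-1c-3p and miR-1b, while miR-206-3p and both miR-143 names had reads in 1 library at no more than 11.2 RPM on average. Its lower members had no reads at 48 h and control reads in 1 library, with control means of 53.4 RPM for miR-1 and 9.32 RPM for miR-133-5p. All 6 neural members were higher, of which miR-124-3p and miR-124, of nearly equal counts, had reads in 2 or more libraries. miR-9-4-3p, miR-153c-5p, miR-124b and miR-124b-3p rested on 1 library each, with means from 6.98 to 26.1 RPM at 48 h. The endocrine and secretory list divided by family, with the 4 miR-7 names higher and the 4 miR-375 names lower. Both listed epithelial names were higher. The sensory and ciliated list had 1 lower member, miR-96-3p at 11.3 RPM in 1 control library, and the list of blood cell and vertebrate immune names, which does not hold miR-146, had no listed member. The vertebrate intestinal name miR-194-5p was listed at 9.87 RPM from 1 library at 48 h with no reads in the control, while miR-192 and miR-215, which also mark vertebrate gut, were not listed.

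The remaining lists were families and lineage names. The immune-linked list had 3 higher members. The miR-146 names, which dampen innate immune signals in mammals, came from 1 library each. miR-210a, which low oxygen induces in mammals, averaged 19.7 RPM at 48 h and 10.04 RPM in the control, and the groups overlapped. The let-7 list had 5 higher and 4 lower members. The miR-100 and miR-125 list had 6 higher and 1 lower, and its 4 abundant miR-125 names had nearly equal counts. Both miR-10 names and both lipid metabolism names (miR-33-2-3p and miR-33) were lower. All 4 miR-71 names were higher, of which miR-71-5p averaged 136 RPM at 48 h and 60.7 RPM in the control. The miR-25/92 list had 3 higher members and 1 lower, miR-25. All 8 echinoderm names were higher and join to 5, with miR-2010 at 182.1 RPM at 48 h and 55.3 RPM in the control and miR-2005 from 1 library. The tunicate list had 8 higher and 4 lower members, of which miR-4005c-5p and miR-4110-3p had reads in 2 or more 48 h libraries. The protostome list had 3 higher and 3 lower members, and the authors' predicted miRNAs 2 higher and 2 lower, each from 1 library.

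**Figure D3:**
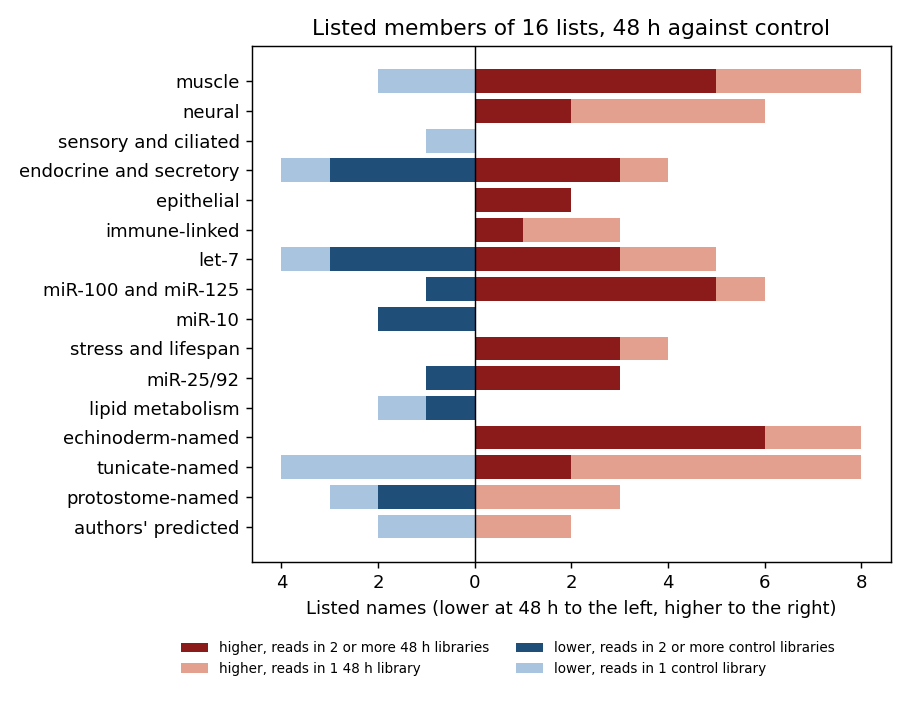
Number of listed names per list that were higher (right, red) or lower (left, blue) at 48 h than in the control; dark bars are names read in at least 2 libraries of the group with more and pale bars those read in 1. The neural, epithelial, immune-linked, stress and lifespan, and echinoderm-named lists have no bar on the left.

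The names fell under 244 miRNA numbers, besides 4 predicted miRNAs, and 21 numbers had 2 or more listed names. All names were higher for 9 of these numbers, all were lower for 3, and 9 were mixed. The all-higher numbers included miR-124, miR-125, miR-7, miR-71 and miR-2010, and the all-lower ones were miR-10, miR-33 and miR-375. Of the 63 names in these 21 numbers 25 rested on 1 library of the group with more, compared with 77.6% of the names that were alone in their number. Both arms of a hairpin were listed for 4 stems. In let-7b, miR-1414 and miR-7297 the 5p arm was higher and the 3p arm lower at 48 h, and in miR-375 both were lower. let-7b-5p averaged 126 RPM at 48 h and 62.9 RPM in the control, while let-7b-3p had no reads at 48 h and 6.74 RPM from 1 library in the control. The miR-1414 and miR-7297 arms each had reads in 1 group and 1 library, with means of 8.32 to 20.9 RPM.

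Names resting on 1 library were unevenly spread over the libraries. At 48 h, 53 names had their reads in the deepest library alone, 35 in the middle and 30 in the shallowest. In the control 69 names had theirs in the shallowest library, 12 in the middle and 31 in the deepest. Of the 111 lower names, 61 rested on the shallowest control library, and 46 stayed at least 2-fold lower under every split when it was left out. Names without reads at 48 h counted among the 46 at any control level left, since the 20 RPM floor was not applied. The library with the most names was the deepest at 48 h and the shallowest in the control.

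**Figure D4:**
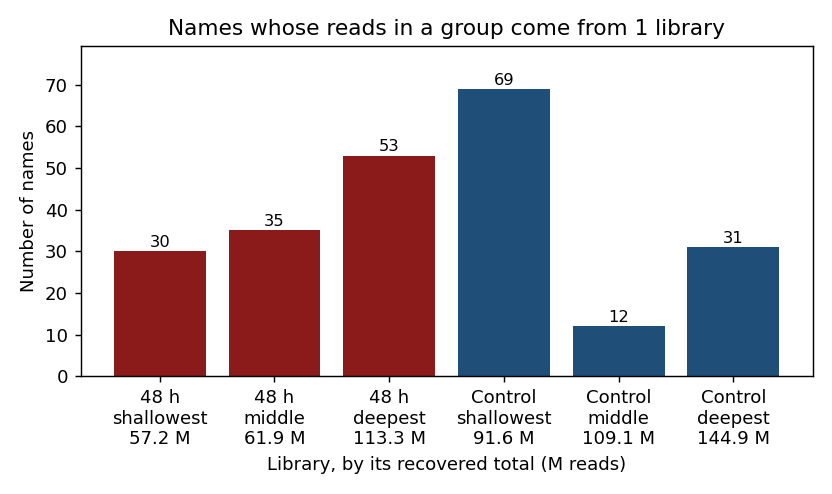
Number of names whose reads in a group all come from 1 library, for the shallowest, middle and deepest library at 48 h (red) and in the control (blue), with each library's recovered total in M reads. The shallowest control library has the tallest bar, 69 names, and the middle control library the lowest, 12 names.

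Of the 12 largest increases by the naming rule 8 rested on 1 library, as did 112 of all 179 higher names, and 5 of these on the deepest 48 h library, namely miR-4113-5p, miR-71b-5p, miR-5916, miR-8268-3p and miR-4711-3p. miR-4206-3p and miR-7a had their reads in the middle 48 h library, at 3919 and 815 RPM there, and miR-8119 in the shallowest, at 483 RPM. The others had reads in more than 1 library. miR-1903 had 413 to 436 RPM in the deepest 48 h library and 127 to 139 RPM on average in the other two, and miR-672 had 307 to 325 RPM and 98.8 to 108 RPM. miR-2207-3p had at most 32.5 RPM in the deepest. Of the 12 largest decreases 7 rested on 1 control library, as did 90 of all 111 lower names. The reads of miR-9120, miR-663a, miR-885, miR-4940-5p and novel_mir_97 came from the shallowest control library, at 277.2 to 1132 RPM there, and those of miR-4653-5p and miR-33-2-3p from the middle one, at 3169 and 303 RPM.

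A comparison of 6 h at 26 °C used the same control libraries, so its values are only set beside these. The abundant names miR-1a-3p, miR-71c-5p, miR-125b-5p, miR-124-3p and miR-2004 were not listed at 6 h. miR-92c-3p averaged 29.1 RPM in the control, 70.9 RPM at 6 h and 3433 RPM at 48 h. miR-375-3p averaged 1913, 722 and 669 RPM in the same order. miR-10c-5p averaged 127756 RPM in the control, 97.7 RPM at 6 h and 47665 RPM at 48 h, the last almost all from the deepest library. let-7d and miR-84-5p had no reads at 6 h. miR-3156-5p had 151 RPM in the control, 904 RPM at 6 h and 29.5 RPM at 48 h, but its control reads all came from the shallowest library, at 454 RPM. miR-493-3p had 64.6 RPM in the control, also from that library alone, 807 RPM at 6 h and no reads at 48 h.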

How the data were processed

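Gel-selected RNA of 18 to 30 nt was made into libraries and read by HiSeq, per the labels' protocols. Trimming, aligner, miRNA database and counting were not given in the sources used here. Per the file headers, the authors deposited pooled read counts and mean levels per group. The deposited level was read as RPM from the values, since counts over summed levels gave 3 constants per group, and their sums match the constant of the deposited log2 ratio within 0.0271%. That log2 ratio compares pooled counts over pooled totals, with 0.5 for a count of 0. The authors' p-value and q-value, from a test that is not named, compare pooled reads; 214 p-values were entered as 0, and ratios of q to p gave the 415 names tested. No test was run here, as values per animal were not analysed here.

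With Python 3.11.15, pandas 2.3.3 and numpy 2.4.6, the levels of 3 libraries that satisfy a count and a mean were bounded for each name. Reads were placed in 1 library where the ratio of count to mean equals its total up to rounding. The bounds were tested on simulated data. Names of 1 number were taken to share reads where both groups' counts differed by under 15%. A fold against no reads used 20 RPM as the floor. Members and lists were chosen with earlier results of these data known. Named were, per direction, the 12 largest ratios whose higher mean was 10 RPM or more, all names of at least 500 RPM in either group, and members of 17 lists matched on the miRNA number; others were named after their values were seen. Alternatives covered the pseudocount, filters, scaling, joined names and libraries left out.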

Additional observations from a re-analysis of the deposited data

How the results depend on the processing

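Counts of higher and lower names, 179 and 111 as deposited, stayed within 1.5 times under pseudocounts of 1 and 10 RPM, a minimum of 10 RPM, joining of names that share reads, and leaving the 5 most abundant out of the totals. The last shifted log2 ratios by -0.05 and brought miR-4466 and miR-222 below 2-fold. By ratio of means with 20 RPM for no reads the counts were 103 and 71. At 100 RPM or more in the group with more they were 52 and 16. Names read in at least 2 libraries of that group numbered 67 and 21. With every doubtful library set at 20 RPM the counts were 60 and 29, of which 41 and 16 were read in at least 2 libraries. Chosen after seeing the data, the deepest 48 h library alone gave 76 higher names at 2-fold. Leaving out 1 library at a time kept 59.8 to 86.6% of the higher and 41.4 to 96.4% of the lower names at 2-fold by means. The lowest share of lower names came without the shallowest control library. These counts fall by construction, since a name read in 1 library goes with it. In them and in the 76, a name without reads in the other group passed at any level, without the 20 RPM floor. Pseudocounts cannot turn a ratio of means, so that 0 of 366 named ratios changed sign says little. Leaving out 1 library, chosen after seeing the data, turned 11 of the 73 names with reads in both groups. Of these, 5 turned without the deepest 48 h library, where miR-4005c-5p was 0.338 to 0.369 and miR-7958-3p 0.275 to 0.301 times the control mean. A higher name whose 48 h reads came from the library left out alone turns by construction, as does a lower name in the control. Of 72 list counts 18 moved by over 1.5 times, 15 of them with doubtful libraries at 20 RPM and 3 with names joined. By means 9 higher and 2 lower names were under 2-fold, among them miR-2006-5p, miR-210a and miR-29b. No paired analysis was possible because the tables hold 1 value per group, and leaving out labelled replicates was not run for the same reason. A group without reads is known only to lie under about 20 RPM per library, and the spread between animals was not tested.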
